A study of Rattus norvegicus with 6 samples.

Results

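Of 32452 array probes without a curated transcript name, 88 were detected well above background in only 1 treatment group of rat kidney. Of these, 14 were detected after 1-amino-2,4-dibromoanthraquinone (ADBAQ) and 74 after corn oil. The probes were chosen by the scanner software's call that a spot is well above background, here called detected. A member had to be detected on all 3 arrays of one group and on 0 of 3 arrays of the other, to carry no outlier flag, and to have an identifier that does not begin with NM_ or NR_, the prefixes of curated RefSeq transcripts. The whole array held 61657 non-control probes, named or not, and of the 61584 without an outlier flag 0.0438% were detected in ADBAQ only and 0.172% in corn oil only. Since the detection calls of this contrast chose the members, their differences between groups are given below as a description.

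Both groups were male Sprague-Dawley rats (Crl:CD(SD)), 5 weeks old when bought, kept on a basal diet and sampled from the renal cortex. Corn oil was given for 4 weeks to 3 rats, and ADBAQ, a brominated anthraquinone, at 1000 mg/kg/day for 4 weeks to 3 other rats. Each animal's RNA went onto a separate Agilent array with 1 dye, so n = 3 in each group. The corn oil arrays shared 1 slide and 1 scan time and the ADBAQ arrays shared another, and an effect of slide or scan cannot be told apart from one of treatment.

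A 1-colour array reports how much labelled RNA binds each short probe. Probes without a curated name were designed on predicted genes, on expressed sequence tags (single reads from cDNA clones) or on consensus sequences built from such reads. Some of these correspond to real messenger or long noncoding RNAs, others to untranslated ends, introns or antisense transcripts of known genes, and some to models that were later withdrawn. In whole tissue, fewer cells of a type and less RNA per cell cannot be told apart.

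The identifiers show which kinds of transcript model the members stand for. Of the 14 detected after ADBAQ, 5 had a GenBank accession, mostly of an expressed sequence tag, 4 an Ensembl transcript, 4 a RefSeq model (XM_ or XR_) and 1 only its probe ID. Of the 74 detected after corn oil, 28 had a GenBank accession, 19 an Ensembl transcript, 10 a consensus sequence with the prefix TC, 10 only a probe ID and 7 a RefSeq model. GenBank accessions made up 37.8% of the corn oil members and 32.6% of all unnamed probes, and Ensembl transcripts 25.7% and 20.8%. RefSeq models made up 9.46% and 12.9%, probe IDs alone 13.5% and 18.5%, and TC sequences 13.5% and 12.5%. The differences between these shares were not tested. The table of RefSeq genes (assembly GRCr8) paired 1 of the 88 with a gene, C10h17orf50. The array design refers to the rat build rn4, and the identifier column held accessions or probe IDs for the members, so chromosome positions and probe sequences are not given here.

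The members were dim. Their mean signal in the group that detected them had a median rank at percentile 32.2 of all probes for ADBAQ members and at percentile 32.1 for corn oil members, and none was saturated on any array. The processed signal, fluorescence in scanner units after the software's background correction and further adjustment, ran from 20.9 to 126 on the ADBAQ arrays for ADBAQ members, with a median of 29.9, and from 3.90 to 20.8 on the corn oil arrays, with a median of 13.2. For corn oil members it ran from 15.4 to 1430 on the corn oil arrays, with a median of 26.7, and from 3.72 to 31.8 on the ADBAQ arrays, with a median of 17.5. A weaker flag of the software, positive and significant signal, was set on at least 1 array of the dim group for 14 of 14 and 74 of 74 members. It was set on all 3 dim arrays for 13 of the 14 and 63 of the 74. Members are therefore called not well above background in that group, and not absent. Processed signal was above 0 also where background-subtracted signal fell below 0, so the lowest printed values are not all direct readings. For TC615454 on ADBAQ replicate 3 the 2 values were 4.58 and -1.79. For AA956017 they were 4.53 and -7.47 on ADBAQ replicate 1, and 5.89 and -1.34 on replicate 2. The bounds and fitted differences below also start from processed signal.

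The call depends on a cut that the software set for each array. The cut applies to the background-subtracted signal, a separate column from the processed signal printed for the members, so the 2 cannot be set against each other directly. A background-subtracted signal had to reach 5 times the array's additive error, which put the lowest detected signal at 22.3, 20.4 and 17.0 on corn oil replicates 1, 2 and 3, and at 21.8, 27.9 and 25.3 on ADBAQ replicates 1, 2 and 3. The cuts were thus higher on ADBAQ replicates 2 and 3 than on any corn oil array, and lowest on corn oil replicate 3. The median local background was 35 to 36 on the corn oil arrays and 47 to 57.5 on the ADBAQ arrays. Of the 74 corn oil members, 60 reached the lowest corn oil cut on at least 1 ADBAQ array and 16 on all 3. Of the 14 ADBAQ members, 0 reached the lowest ADBAQ cut, 21.8, on any corn oil array. The rule nearly fixed that 0. An undetected spot lies below 20.4 and 17.0 on corn oil replicates 2 and 3, and below 22.3 on replicate 1. The 60 and the 0 can therefore not be set against each other.

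The excess of corn oil members turned round when every array was given the same cut. With the highest of the 6 cuts, 27.9, applied to all arrays, 97 unnamed probes met the rule after ADBAQ and 21 after corn oil, and 8 and 13 of these were among the 14 and 74 members. The second common cut was set on processed signal, not background-subtracted signal, at 1.82% of each array's 75th percentile. With it the counts were 48 and 40, with 10 and 30 members among them. That percentile was 1126 to 1177 in corn oil and 1279 to 1307 after ADBAQ. The part of the cuts in the balance of 14 against 74 was not tested beyond these counts, and cut, slide and treatment cannot be told apart. With 1 array fewer to satisfy, the counts after ADBAQ were 24, 33 and 61 without corn oil replicates 1, 2 and 3, and 40, 41 and 45 without ADBAQ replicates 1, 2 and 3. The counts after corn oil were 199, 135 and 115 without corn oil replicates 1, 2 and 3, and 200 without ADBAQ replicate 1. No share over all probes stands beside the counts in this paragraph, so the turn is not read as a trait of unnamed probes.

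Among the 32452 unnamed probes the shares detected in ADBAQ only and in corn oil only were 0.0431% and 0.228%, and among the 29132 named probes 0.0446% (13 probes) and 0.110% (32 probes). Of the unnamed probes 59.1% were detected on all 6 arrays, against 73.5% of the named probes. Of probes detected on some arrays and not on others, 1.75% of the unnamed and 1.28% of the named met the rule for corn oil, and 0.332% and 0.521% that for ADBAQ. These shares use the same contrast as the rule, and the difference between the classes was not tested.

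Differences between groups are given as bounds, because a signal near background says only that the RNA was no brighter than that. Each array's signals were divided by its 75th percentile, the bright group's mean log2 value was taken over its 3 arrays, and each dim array counted at no less than the lowest detected signal on it. The median bound was 1.55-fold over the 14 ADBAQ members (0.63 on the log2 scale) and 1.38-fold over the 74 corn oil members (0.46), while the median difference over the 42256 probes tested was -0.0080 on the log2 scale with this scaling and 0.15 without it. A bound of 2-fold or more was met by 3 ADBAQ members (21.4%) and 15 corn oil members (20.3%). Among named probes picked by the same rule, 7 of 13 and 3 of 32 reached 2-fold. The size of a bound depends on the floor and on the background correction. For the 24 members with the largest bounds, 12 in each direction, a floor at the 5th percentile of detected signals made the bound 1.51 to 1.67 times smaller, and normexp background correction made it 1.22 to 2.71 times smaller, by over 1.5 times in 15.

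Detected after ADBAQ, the probe A_44_P135575 for the Ensembl transcript ENSRNOT00000040648 had the largest bound. Its signal was 12.98, 8.64 and 10.1 after corn oil and 126, 117 and 101 after ADBAQ. Every treated animal lay above every control. Its bound was 6.01-fold, or 2.22-fold with normexp and 3.62-fold with the higher floor. Its bright arrays were close together, with a mean of 115 ± 12.5 (SD, n = 3).

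Next came A_64_P064996, known only by its probe ID, and A_44_P380157 for the RefSeq model XM_001074009. A_64_P064996 gave 8.06, 10.2 and 3.899 after corn oil and 53.4, 60.9 and 32.8 after ADBAQ. Its bound was 2.49-fold (1.45-fold with normexp and 1.499-fold with the higher floor). A_44_P380157 gave 20.8, 15.2 and 9.27 after corn oil and 58.2, 51.1 and 31.6 after ADBAQ, with a bound of 2.33-fold (1.31-fold and 1.44-fold). In both, ADBAQ replicate 3 was the dimmest of its group and still above every control. A_43_P13259, for the GenBank sequence AF327513, gave 3.901, 4.601 and 9.42 after corn oil and 36.2, 41.5 and 25.7 after ADBAQ. Its bound of 1.77-fold (1.07-fold with the higher floor) takes each corn oil array at its detection limit, since all 3 lay below it.

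The other 10 ADBAQ members had bounds from 1.31-fold to 1.701-fold. AI102819 gave 9.85, 15.7 and 12.5 after corn oil and 30.4, 29.96 and 37.3 after ADBAQ. XM_218590 gave 16.01, 16.9 and 13.7 after corn oil and 25.4, 26.3 and 41.5 after ADBAQ, with replicate 3 the brightest. Its bound was 1.59-fold, or 1.12-fold with normexp and 0.96-fold with the higher floor. The Ensembl transcripts ENSRNOT00000038157, ENSRNOT00000007358 and ENSRNOT00000021189 had bounds of 1.503-fold, 1.38-fold and 1.38-fold, and the RefSeq models XM_225740 and XM_001058554 ones of 1.51-fold and 1.499-fold. In 14 of 14 members the treated and control signals were fully separated, where 12.8% of all probes tested were separated in that direction. The rule used these signals, so nothing is read from that count.

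The tag BE117700 supplied 2 of the 14 members, which share their source and are not independent. A_44_P425814 gave 16.2, 19.5 and 15.1 after corn oil and 28.9, 43.7 and 27.9 after ADBAQ. Its bound was 1.64-fold, or 1.21-fold with normexp and 1.04-fold with the higher floor. A_44_P425809 gave 15.6, 11.7 and 12.3 after corn oil and 22.8, 25.8 and 28.6 after ADBAQ (a bound of 1.34-fold). Their spots lay in rows 384 and 183 of the array. Another probe with this identifier, A_44_P425806, was detected on all 6 arrays, at 56.5, 64.8 and 133 after corn oil and 90.9, 85.8 and 76.4 after ADBAQ. Its groups overlapped, so the probes of this tag disagreed. XM_225740 also had another probe, which was detected on 0 of 6 arrays.

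The 3 ADBAQ members nearest the limit were BI287851, BE117700 (A_44_P425809) and ENSRNOT00000021189, with bounds of 1.31-fold, 1.34-fold and 1.38-fold. The unnamed probes just outside the rule, detected on 1 corn oil array as well, included larger differences. AI031045 gave 32.1, 14.1 and 15.1 after corn oil and 105, 80.3 and 78.1 after ADBAQ (3.82-fold). FQ212409 and A_64_P145927 had values of 3.79-fold and 3.56-fold.

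Detected after corn oil, the largest bound belonged to A_44_P320999 for ENSRNOT00000045874 and rested on 1 array. Its signal was 55.7, 47.8 and 1430.0 after corn oil and 4.71, 20.9 and 12.04 after ADBAQ. Corn oil replicate 3 was 29.9 times as bright as the dimmest corn oil array. The bound was 8.26-fold with all arrays, 2.70-fold without corn oil replicate 3, 13.9-fold without replicate 1 and 15.1-fold without replicate 2, and with all arrays it was 3.54-fold with normexp and 4.95-fold with the higher floor.

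The consensus sequence TC615454 showed a more even difference. It gave 40.5, 63.03 and 74.97 after corn oil and 5.12, 8.68 and 4.58 after ADBAQ. Its bound was 3.05-fold (1.77-fold with normexp and 1.83-fold with the higher floor). The Ensembl transcripts ENSRNOT00000013175 and ENSRNOT00000039447 had bounds of 2.94-fold and 2.704-fold (1.46-fold for both with normexp, and 1.76-fold and 1.62-fold with the higher floor). In all 3 the groups did not overlap, while the corn oil arrays differed among themselves by 1.85 to 2.55 times. ENSRNOT00000013175 gave 37.2, 80.4 and 57.5 after corn oil and 16.6, 20.3 and 5.48 after ADBAQ. ENSRNOT00000039447 gave 33.7, 46.2 and 85.8 after corn oil and 13.6, 6.22 and 15.4 after ADBAQ.

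Members with a RefSeq model among the largest bounds were XM_002728056, XM_001058470 and XM_223026. XM_002728056 gave 55.8, 61.9 and 34.96 after corn oil and 14.2, 20.8 and 17.2 after ADBAQ (2.62-fold). XM_223026 gave 45.9, 49.5 and 39.1 after corn oil and 12.6, 19.8 and 18.2 after ADBAQ (2.36-fold). For XM_223026 the corn oil mean was 44.9 ± 5.29 (SD, n = 3), and the groups of both probes were separated. ENSRNOT00000005919 gave 39.99, 57.1 and 52.3 after corn oil and 12.1, 23.3 and 28.6 after ADBAQ (2.36-fold). With normexp the bounds of XM_002728056, XM_223026 and ENSRNOT00000005919 were 1.45-fold, 1.43-fold and 1.43-fold, and with the higher floor 1.57-fold, 1.41-fold and 1.56-fold.

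In 5 members with large bounds the brightest corn oil array, replicate 1, exceeded the dimmest by 4.02 to 5.34 times. AA956017 (row 13) gave 98.4, 87.6 and 19.9 after corn oil and 4.53, 5.89 and 5.28 after ADBAQ, and its bound was 2.94-fold, or 4.85-fold without corn oil replicate 3. AI412580 (row 11) gave 101, 69.3 and 19.6 after corn oil and 17.7, 13.1 and 22.4 after ADBAQ, and its bound was 2.68-fold, or 4.29-fold without corn oil replicate 3. In AA956017 the groups were separated and in AI412580 they overlapped. AA899146 (row 5) gave 109, 38.8 and 27.2 after corn oil and 11.4, 17.2 and 17.8 after ADBAQ. A_64_P066943 (row 83) gave 121, 27.5 and 29.3 after corn oil and 18.8, 9.65 and 21.2 after ADBAQ, with a bound of 2.43-fold, or 1.51-fold without corn oil replicate 1. A_44_P215562 (row 9) gave 111, 25.8 and 20.8 after corn oil and 18.7, 23.9 and 22.1 after ADBAQ. Its bound was 2.04-fold, and its groups were separated after scaling but overlapped in unscaled signal. With normexp the bounds of AA956017, AI412580, AA899146 and A_64_P066943 were 1.69-fold, 1.47-fold, 1.301-fold and 1.47-fold, and with the higher floor 1.76-fold, 1.63-fold, 1.54-fold and 1.46-fold. The rows of 4 of these 5 spots lay within the first 16 of the array.

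Rows 1 to 16 of 384 held 7 of the 74 corn oil members (9.46%) and 0 of the 14 ADBAQ members, against 4.24% of all unnamed probes. On corn oil replicate 1, 5.87% of probes in those rows exceeded the mean of the other corn oil arrays by more than 1.5 on the log2 scale, against 1.21% in the other rows. The same held for corn oil replicate 2 (4.62% and 1.24%), ADBAQ replicate 2 (5.29% and 1.07%) and ADBAQ replicate 3 (5.48% and 0.920%), and less for corn oil replicate 3 (1.57% and 1.33%), while ADBAQ replicate 1 had the smaller share there (0.392% and 0.736%). Without those rows 14 and 67 members were left. The part of spot position in these members was not tested.

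Several corn oil members had other probes for the same identifier. There were 15 such members, covering 14 identifiers, with 21 other probes, of which 2 were members themselves. Of the 21, 8 were detected on all 6 arrays and 6 on none. Among the 8, 2 were separated between groups in the direction of the member and 1 in the opposite direction, and the other 5 overlapped.

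For XM_001058470 both probes were lower after ADBAQ. The member A_64_P155245 gave 39.5, 49.04 and 57.9 after corn oil and 4.68, 7.102 and 14.7 after ADBAQ. Its bound was 2.55-fold (1.58-fold with normexp and 1.53-fold with the higher floor). The brighter probe A_64_P059461 gave 104, 103 and 108 after corn oil and 61.3, 71.98 and 78.99 after ADBAQ, a difference of -0.74 on the log2 scale between separated groups.

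For ENSRNOT00000030609 the member A_42_P646213 gave 30.3, 42.7 and 46.1 after corn oil and 5.4002, 12.9 and 23.5 after ADBAQ. Its bound of 2.002-fold lay right at the limit of 2-fold. With normexp 1 corn oil member, ENSRNOT00000045874, kept a bound of 2-fold or more, so this member fell below it. A_64_P081939 gave 67.8, 87.3 and 101 after corn oil and 28.97, 33.02 and 60.2 after ADBAQ, with a difference of -1.29 and no overlap. The other probe, A_64_P140148, was detected on 2 ADBAQ arrays and gave 50.99, 63.1 and 71.7 after corn oil and 9.83, 42.6 and 62.8 after ADBAQ, a difference of -1.21 with overlapping groups. In all 3 probes ADBAQ replicate 1 was the dimmest array and replicate 3 the brightest of the treated group.

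For XM_225619 the probes pointed in opposite directions. The member A_44_P293067 gave 30.4, 17.4 and 36.99 after corn oil and 3.72, 16.3 and 11.2 after ADBAQ. A_64_P013012, with the same identifier, gave 38.3, 55.7 and 70.1 after corn oil and 199, 98.6 and 109 after ADBAQ, a difference of 1.12 on the log2 scale without overlap. ENSRNOT00000061003 had a dim member, A_64_P003790, at 20.9, 18.7 and 23.1 after corn oil and 18.5, 8.72 and 15.3 after ADBAQ, beside a brighter probe whose groups overlapped, A_64_P161381, at 264, 339 and 310.2 after corn oil and 351, 296 and 344 after ADBAQ. ENSRNOT00000035057 supplied 2 members, A_64_P002661 and A_44_P274381, with bounds of 1.34-fold and 1.21-fold.

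Most corn oil members had a small bound, which does not show a small difference. The bound was under 1.5-fold for 48 of the 74, and the mean corn oil signal was under 30 in 48. Taken from the scaled processed signals, without a floor, the median difference was -0.92 on the log2 scale. By that measure 22 of the 74 differed by less than 1.5-fold. Of the 48 with a bound under 1.5-fold, 10 differed by 2-fold or more. After scaling, the groups did not overlap in 60 members, where 14.2% of all probes tested were separated in that direction. In unscaled signal they did not overlap in 42, and the share over all probes was not computed for unscaled signal. The rule used these signals, so nothing is read from either count. C10h17orf50, the member with a gene symbol (XM_001069291, probe A_64_P099074), gave 30.5, 25.3 and 24.4 after corn oil and 19.02, 24.6 and 27.1 after ADBAQ. Its unscaled signals overlapped, and the bound was 1.28-fold.

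The corn oil members nearest the limit had a small bound or none. TC624174 gave 23.8, 24.02 and 18.5 after corn oil and 22.98, 24.7 and 26.4 after ADBAQ, so it was detected in the group with the lower mean signal and has no fold. AI576488 and A_64_P115410 had bounds of 1.07-fold and 1.08-fold. Just outside the rule, L22655 gave 38.3, 77.5 and 546 after corn oil and 7.47, 6.81 and 25.4 after ADBAQ (5.87-fold), with detection on 1 ADBAQ array. C_CA_D0109 gave 53.3, 37.1 and 236 after corn oil and 35.0, 8.40 and 5.60 after ADBAQ (3.34-fold). In L22655 and C_CA_D0109 corn oil replicate 3 was 14.3 and 6.37 times as bright as the dimmest corn oil array. CF110082 had a value of 2.37-fold.

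All 42256 probes detected on every array of at least 1 group were fitted with limma, and after Benjamini-Hochberg adjustment 0.185% were called higher and 0.0639% lower after ADBAQ. Of the members, 1 of 14 was called higher, ENSRNOT00000040648, and 2 of 74 lower, TC615454 and A_64_P024759. The members were chosen on the same contrast, so nothing is read from these counts. Over all probes tested the calls were 78 higher and 27 lower, against 2599 and 144 without scaling, 228 and 199 with normexp background correction, and 242 and 227 with robust variances and a trend on intensity. A_64_P024759 gave 24.8, 24.9 and 20.9 after corn oil and 10.3, 7.47 and 7.93 after ADBAQ, with a bound of 1.24-fold. No ADBAQ member was called by limma without ADBAQ replicate 2, where limma called 1 probe higher and 0 lower of all 42682 tested. In that fit 13 ADBAQ members had an unadjusted p under 0.05, as had 5486 of all probes tested. Of corn oil members, limma called 0 without corn oil replicate 1, corn oil replicate 2 or ADBAQ replicate 2. It called 1 without corn oil replicate 3 or ADBAQ replicate 1. In the fits with 0 calls, 47, 51 and 58 corn oil members had an unadjusted p under 0.05. Over all probes tested these numbered 7508 of 43033, 6392 of 42583 and 5486 of 42682. The members were chosen on this contrast, so nothing is read from their unadjusted counts. Over all probes the calls lower after ADBAQ numbered 11, 10 and 7 without corn oil replicates 1, 2 and 3 and 5 without ADBAQ replicate 1, so the calls fell over all probes and not in the members alone.

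Named probes that met the same rule give a scale for these values. After ADBAQ they were led by Cyp1a1, a cytochrome P450 controlled by the aryl hydrocarbon receptor. It gave 4.64, 4.33 and 3.65 after corn oil and 3691, 1562 and 2603 after ADBAQ. Its background-subtracted signal on corn oil replicate 2 was -5.31. Both of the next probes were for Csmd1, a membrane protein with complement control domains, at 9.92-fold and 4.54-fold, and the leading unnamed transcript, at 6.01-fold, lay between them. After corn oil they were led by Ppfia4, Zbtb16 and Prkg2, at 3.704-fold, 2.67-fold and 2.27-fold.

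The tissue label was checked against markers. All 6 proximal tubule genes (Lrp2, Cubn, Slc34a1, Slc22a6, Slc5a2 and Aqp1) were detected on all 6 arrays, and all 3 podocyte genes, which mark the cortex. Of 4 adrenal genes, 1 was detected on all 6 arrays and Cyp11b1 and Star on none. The summed signal of all 4 adrenal genes was 193% to 216% of the 75th percentile in corn oil and 242% to 255% after ADBAQ. The 3 liver genes were detected on all 6 arrays (62.7% to 99.0% in corn oil and 23.6% to 105% after ADBAQ), as were 2 of 3 skeletal muscle genes (14.5% to 16.4% and 14.1% to 17.9%). Red cell genes (Hbb, Alas2 and Slc4a1) were all detected, and their summed signal was 16664% to 18312% of the 75th percentile in corn oil and 32881% to 38143% after ADBAQ. The part of any of these cell types in the members was not tested.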

How the data were processed

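RNA of renal cortex was labelled with Cy3, per the labels' protocols, and hybridised to a rat array of 62976 spots. Agilent Feature Extraction 10.7.1.1 made the spot files, per the file headers (10.7 in the submitters' processing notes). The deposited values are processed, background-subtracted and background signal intensity with the software's flags. The authors' deposited table is a ratio, the processed signal over 1 constant per array near its 75th percentile (linear, not centred, column medians 0.111 to 0.114). The basis of that constant is not stated.

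Here, 1319 control spots were dropped, and log2 processed signal had each array's 75th percentile subtracted. Accessions without versions were matched to RefSeq genes, which paired 27460 of 61657 probes with a symbol. Probes detected on every array of at least 1 group were fitted with limma 3.58.1 in R 4.3.3 (two-sided, no covariates, adjusted p threshold 0.05), a step tested on simulated data. The rest used Python 3.11.15, pandas 2.3.3 and numpy 2.4.6. With 3 arrays per group, precision is limited by their number. Alternatives covered flags, scaling, background correction, floor, filter and left-out arrays.

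Members, marker lists and the naming rule (per direction the 12 largest bounds, the 3 smallest, 3 probes just outside, members with a symbol or a shared identifier, and 3 named probes) were chosen with earlier results of these data known. A_64_P024759, A_44_P215562, A_42_P646213, A_64_P003790 and XM_225619 were named after their values were seen, and the cuts common to all arrays and the limit of 16 rows were set then too.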

Additional observations from a re-analysis of the deposited data

How the results depend on the processing

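The counts of 14 and 74 rest on each array's own detection cut, and their order turned with a common one. They were 97 and 21 with 1 cut on background-subtracted signal. With 1 cut on processed signal relative to the 75th percentile they were 48 and 40. Both common cuts were chosen after seeing the data. With the weaker flag, positive and significant signal, 36 and 56 unnamed probes met the rule, sharing 0 with the members. Leaving out 1 array gave 24 to 61 and 89 to 200. No share over all probes stands beside these counts. Keeping outlier-flagged probes, leaving out RefSeq models or genes with a symbol, or counting each identifier once kept both counts within 1.5 times.

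Bounds of 2-fold or more numbered 3 and 15, and 1 and 1 with normexp, where the median ADBAQ bound was 0.22 on the log2 scale. With dim arrays raised to the 5th percentile of detected signals the medians were -0.044 and -0.23. Members then below 0 included XM_218590 (-0.066), XM_225740 (-0.023), ENSRNOT00000038157 (-0.10), XM_001058554 (-0.14), ENSRNOT00000007358 (-0.27) and ENSRNOT00000021189 (-0.27). No scaling, quantile normalization and the authors' table kept both counts within 1.5 times.

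For limma the members called were 10 and 11 without scaling, 2 and 4 with normexp, and 2 and 6 with robust variances and a trend on intensity. Without the detection filter 0 of the corn oil members were called, and limma called 31 higher and 4 lower of all 61584 probes. There 58 corn oil members and 7487 of all probes had an unadjusted p under 0.05. The numbers of ADBAQ and corn oil members called are also given for left-out arrays. They ran from 0 to 1 and from 0 to 2 when 1 array was left out. With the replicate block limma called 0 and 0 members, with 14 and 60 at an unadjusted p under 0.05, and 0 of all 42256 probes in either direction, 7368 of which had an unadjusted p under 0.05. Same-numbered arrays deviated together only weakly (correlations 0.0074, 0.15 and 0.048), so the numbers were not taken as pairs. Slide as a block could not be fitted, since each group had its own. The causes were not tested. Signals near background limit all of these values.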
